A study of Homo sapiens with 267 samples.

Results

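The untreated K562 cells of 1 experiment were compared by how much immediate-early mRNA their libraries held. K562 is an established human line from a myelogenous leukaemia, and its cells make the fusion kinase BCR-ABL. The libraries were the 51 of the CellTracker Green dye in the run whose other dye, Orange, marked imatinib-treated cells, out of 267 in the series. Run here means the libraries whose titles share a prefix, which can span more than 1 microfluidic capture. A library was kept if at most 70% of its reads lay in its top 500 genes and fewer than 10000 genes had more than 2 reads, with the ERCC spike-in sequences left out, which kept 48. Each kept library was scored by the mean log2(CPM + 1) of EGR1, FOS and IER2, where CPM is the count per 1000000 reads on genes. The 16 libraries with the highest score (the high group) were set against the 16 with the lowest (the low group), so that 32 of the 48 form the comparison. Because the groups were chosen by these measured levels, the differences of the 3 score genes are what the rule selected on and not a finding, and no test was made on any gene.

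The Green cells were untreated apart from the dye (1 µM CellTracker Green for 30 min) and a dead-cell stain. Their passage label gives 20 to 22, with hours as the unit, and was read as passage numbers, which was not checked. The Orange cells of the same run had 1 µM imatinib, an inhibitor of the BCR-ABL kinase, for 1 h. Further sets were used only to look at the same genes elsewhere. These were untreated Green cells and Orange cells given 10 mM benzene for 3 h in a second CellTracker run, and untreated cells in a run stained with Hoechst, whose passage label gives 90 to 92, again in hours. In each experiment the study captured fresh cells at once and cells fixed with the reversible cross-linker DSP days later, and fixation, storage, capture and the kind of sample (1 cell, bulk or empty) were not told apart here. The labels do not separate the 48 libraries by capture or culture, so every SD below is a spread between libraries that may mix fresh with fixed cells and 1 capture with another.

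Immediate-early genes are transcribed within minutes of a signal without new protein synthesis. Growth-factor and stress signals reach them through the MAP kinases ERK, JNK and p38, which act on ternary complex factors bound with SRF at serum response elements and on CREB at cAMP response elements. Their mRNAs are short-lived, so that a cell holds many copies for only a short time after each pulse. EGR1 encodes a zinc-finger transcription factor, FOS a subunit of the AP-1 transcription factor, and IER2 a small nuclear protein of the same early response. In K562 cells BCR-ABL drives the RAS to ERK pathway without added growth factor.

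The stretches of promoter that carry the known signal-response letters are shown because all 3 score genes answer to the signals above and each holds a CRE core there. They are from RefSeq on GRCh38.p14, all on the plus strand, and capitals mark CArG boxes (the SRF-binding motif) and the CRE core TGACG on either strand. EGR1 is shown from base -120 to base -31 before its start (chr5:138465359-138465448), FOS from -100 to -21 (chr14:75278728-75278807) and IER2 from -150 to -61 (chr19:13150261-13150350).
EGR1: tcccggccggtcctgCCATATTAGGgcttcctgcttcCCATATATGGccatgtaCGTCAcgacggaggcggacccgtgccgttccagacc
FOS: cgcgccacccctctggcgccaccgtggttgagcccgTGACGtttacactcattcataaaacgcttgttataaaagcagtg
IER2: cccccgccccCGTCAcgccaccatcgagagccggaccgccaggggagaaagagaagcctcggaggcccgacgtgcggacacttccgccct
In the 250 bases before its start, EGR1 held 2 CArG boxes and 2 CRE cores, whereas FOS and IER2 each held 1 CRE core and no CArG box by these letters. Bases further upstream were not read, so a CArG box there would not be counted. A CArG box was found in 1.14% of the 27305 promoters of that length in the table, and a CRE core in 21.7%. Among the 7580 genes measured here with a promoter in the table, the CRE core was in 32.9%. A match of letters is a description and not a shown binding site.

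The 3 score genes did not make the score equally. EGR1 (ENSG00000120738; GRCh37 chromosome 5, 137801168 to 137804992) was detected, that is had more than 2 reads, in all 48 kept libraries, and its CPM in the low group had a lowest, median and highest value of 21.6, 315 and 821. In the high group the same values for EGR1 were 234, 735 and 1436. These ranges overlapped widely, with 9 of the 16 low group libraries at or above the lowest high group library. Its mean log2(CPM + 1) was 8.13 ± 1.25 (SD, n = 16) in the low and 9.36 ± 0.71 in the high group, a difference of 1.24.

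FOS (ENSG00000170345; GRCh37 chromosome 14, 75745529 to 75748933) varied most. In the low group its CPM ran from 0.899 through a median of 54.3 to 1642, and in the high group from 202 through 715 to 1512. Of the low group libraries 12 lay below the lowest high group library and 4 did not. The mean log2(CPM + 1) of FOS was 5.58 ± 2.60 against 9.29 ± 0.92, a difference of 3.71. With the reads of each group pooled, FOS stood at 146 CPM (exact Poisson 95% interval 140 to 151) and 752 CPM (740 to 765). In the low group 1 library gave 1186 of the 2775 FOS reads. The intervals treat pooled reads as independent counts and do not cover the spread between libraries. They do not cover amplification either, since the reads carry no molecular identifiers.

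IER2 (ENSG00000160888; GRCh37 chromosome 19, 13261225 to 13265725) was the scarcest. Its CPM was 0, 5.12 and 47.2 (lowest, median, highest) in the low group and 10.98, 61.5 and 127 in the high group. It was at 0 reads in 3 low group libraries, and 11 of the 16 high group libraries lay above every low group library. The mean log2(CPM + 1) of IER2 was 2.64 ± 1.91 against 5.77 ± 0.88, a difference of 3.13.

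**Figure D1:**
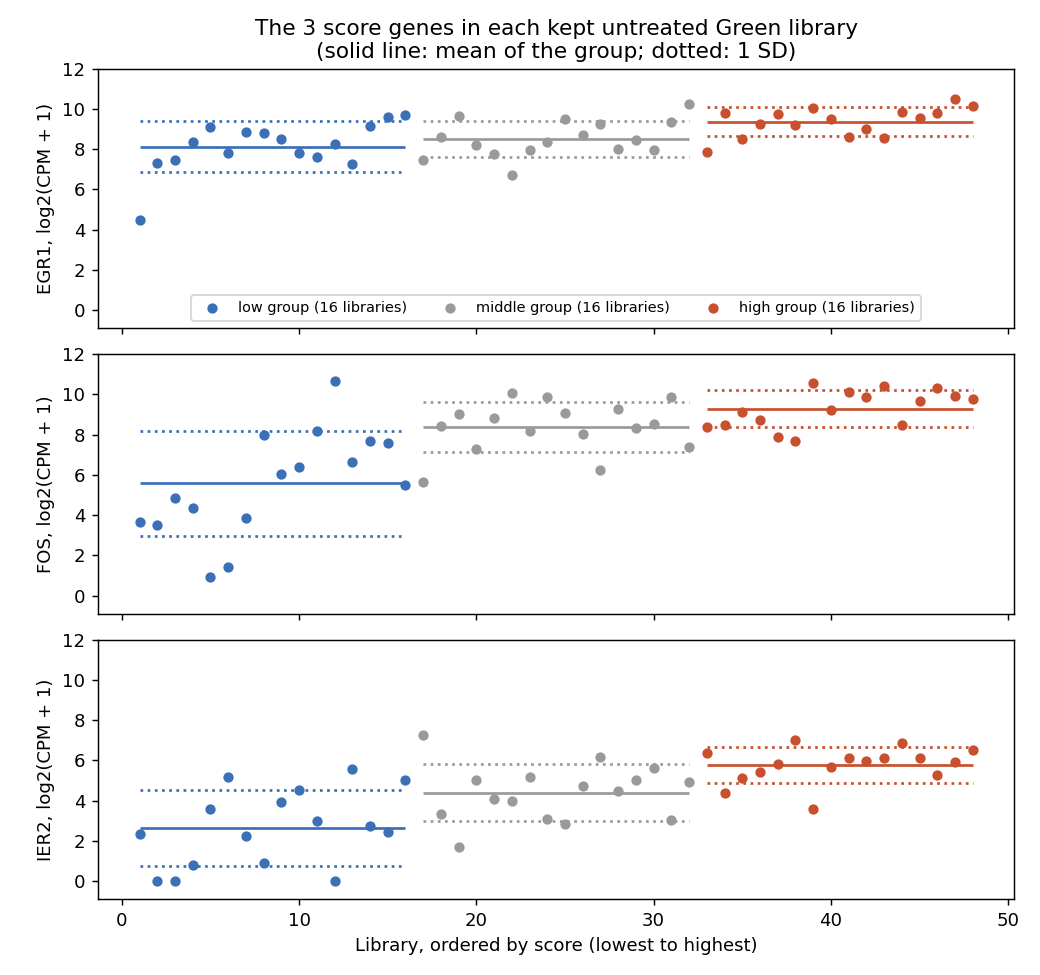
Level of EGR1, FOS and IER2, as log2(CPM + 1), in each of the 48 kept Green libraries ordered by score, with the mean (solid line) and 1 SD (dotted lines) of each group of 16. In the low group FOS spreads over most of the axis, from 0.93 to 10.68, and IER2 runs from 0 to 5.59. Both narrow in the high group, where the SDs are 0.92 and 0.88, while EGR1 overlaps between all groups.

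The score ran from 3.49 to 8.80 with a median of 7.12. Its widest step was 0.91, from 4.98 to 5.89, inside the low group, with 7 libraries below it. The limits of the groups fell at narrow steps. The highest library of the low group was at 6.73 and the next above it at 6.77, and the lowest of the high group was at 7.55 with the next below it at 7.52. The medians were 6.02 in the low, 7.12 in the middle and 8.20 in the high group.

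The 3 genes moved only loosely together from library to library. Over the 48 libraries Spearman's rho was 0.31 between EGR1 and FOS, 0.22 between EGR1 and IER2 and 0.22 between FOS and IER2, values that share library depth and composition. When the groups were formed from the other score genes, the gene left out differed by 0.78 (EGR1, with 8.28 ± 1.28 against 9.06 ± 0.99), by 1.20 (FOS, with 7.35 ± 2.47 against 8.55 ± 1.67) and by 0.84 (IER2, with 3.73 ± 2.18 against 4.57 ± 1.99). Each difference was smaller than the spread within a group. The highest FOS level of all 48, 1642 CPM, was in a low group library, which had no IER2 read.

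The groups also differed in measures of the libraries themselves. The median number of detected genes was 7280 in the low, 8320.5 in the middle and 8052 in the high group. ERCC spike-ins took a median of 11.99%, 6.53% and 7.84% of all counts in the same order, and more than 15% in 5 low group libraries, 1 middle group library and no high group library. Reads on genes had medians of 1191323 in the low and 1189516 in the high group, within a range of 722407 to 1597836 over the 48. Mitochondrially encoded genes took 7.54% and 6.52% of the reads on genes. The low group library with the highest FOS was the one with the fewest reads (722407), the largest spike-in share (30.0%) and the smallest mitochondrial share (0.23%). Spike-in share also varied along the library numbers, which follow sample order. It was 4.83 to 7.22% in libraries 1 to 16 and 12.2 to 19.8% in libraries 40 to 49. Of the former, 1 and 13 were in the low group and 2, 4, 6, 7, 9, 12 and 14 in the high group. Of the latter, 40, 41, 42, 43, 46, 47 and 49 were low and 44 and 48 high. What this order stands for is not in the labels, and its part in the differences was not tested.

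**Figure D2:**
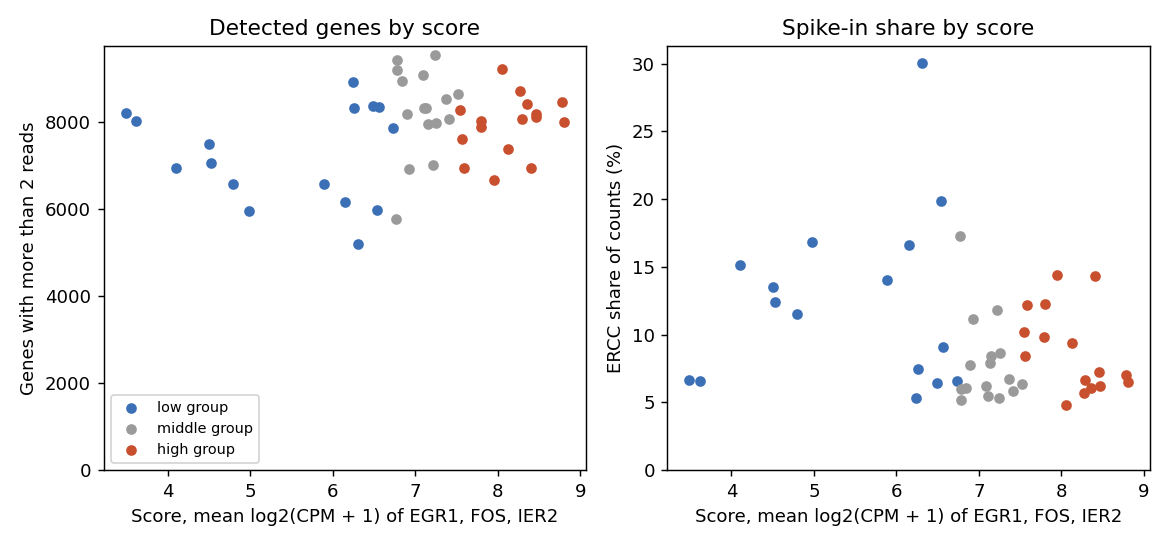
Number of genes with more than 2 reads (left) and ERCC share of all counts in percent (right) against the score, 1 point per kept Green library, coloured by group. Low group libraries reach down to 5201 detected genes and up to 30.0% spike-in, and the high group stays between 6669 and 9221 genes and at or below 14.4%.

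Across the 10519 genes measured (more than 2 reads in at least 20% of the 48 libraries), the median difference, high minus low group, was 0.21 in log2(CPM + 1), and 63.8% of genes lay above 0. A gene was called past the size limit where its difference was at least 1 and larger than the larger SD of the groups. Outside the score genes, 30 genes were higher past this limit, 0.285% of 10516, and 5 were lower, 0.0475%. With library sizes scaled by trimmed-mean factors (edgeR's TMMwsp) in place of totals the counts were 19 and 9, as they were with DESeq2's size factors. When the 6 libraries with more than 15% spike-in were left out and the groups formed again, 10 genes were higher and 19 lower, and 7 of the 35 remained past the limit in the same direction. Groups formed again within each side of the median number of detected genes gave 13 and 9. The part of library quality in these counts was otherwise not tested.

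The other immediate-early genes were not among them. With only 0.285% and 0.0475% of all genes past the limit, this does not set a list of 30 apart. Of 48 listed, 30 were measured and 0 passed the size limit in either direction. Of these, 20 lay above and 10 below 0, while 63.8% of all genes lay above 0. Their median difference was 0.37, beside 0.21 over all genes. It was 0.12 beside 0.14 with TMMwsp, 0.10 beside 0.12 with DESeq2's size factors, and -0.04 beside -0.03 without the libraries over 15% spike-in. The summed level of the immediate-early list had a median of 943 CPM in the low group (413 to 3380) and 1125 CPM in the high group (697 to 2032), so that the ranges overlapped.

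Among AP-1 subunits FOSB, the close relative of FOS, had the largest difference of the list, 1.89. Its CPM was 0, 2.58 and 161 (lowest, median, highest) in the low group and 0, 26.9 and 484 in the high group, and it was detected in 8 and 12 of 16 libraries. With means of 2.49 ± 2.66 and 4.38 ± 2.77 the difference was within the SD of either group. FOSL1, a further FOS relative, differed by 1.16 and JUNB by 0.78. JUN, the usual partner of FOS, differed by 0.12 and JUND by -0.16, and JUND was detected in every library of both groups with means of 4.51 ± 0.86 and 4.35 ± 0.75.

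Genes that end the early response gave a mixed picture. DUSP1, a phosphatase that inactivates MAP kinases, differed by 1.64. Its CPM was 0, 3.14 and 959 in the low group and 0, 35.99 and 422 in the high group, and its highest level was thus in the low group. Of the ZFP36 family, which destabilise AU-rich mRNAs, ZFP36L1 differed by 1.10, ZFP36L2 by 0.17 and ZFP36 by -0.65. NFKBIA, the inhibitor of NF-κB, differed by 0.73.

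Transcription factors and other members were spread on both sides of 0. NR4A2, an orphan nuclear receptor, differed by 1.11, ID2, an inhibitor of helix-loop-helix factors, by 1.09, and PPP1R15A, a phosphatase subunit of the stress response, by 1.18. MYC differed by -0.21, with means of 6.64 ± 1.53 and 6.43 ± 1.98, and ATF3 by 0.12. The lowest values were KLF10 at -0.80, HES1, a Notch target, at -0.77 and IER5 at -0.76. Each of these lay within the spread between libraries.

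**Figure D3:**
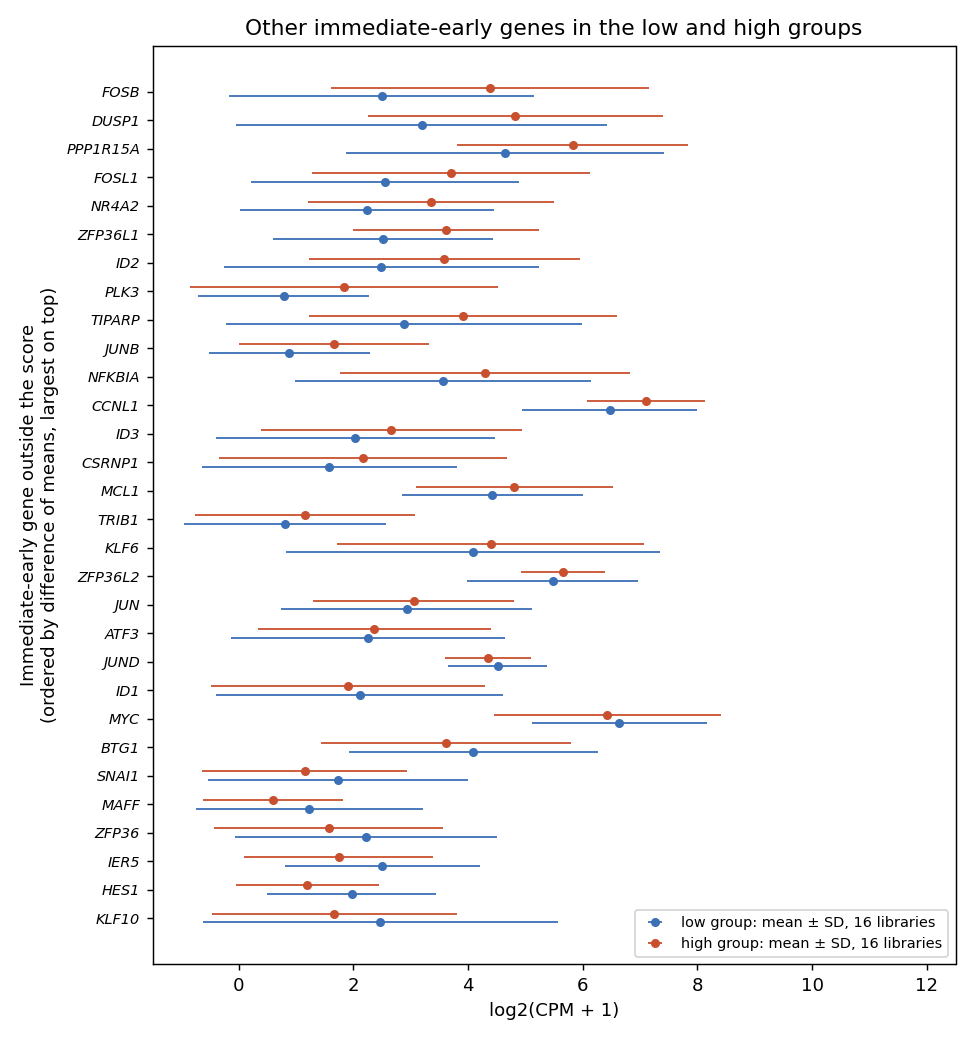
Mean log2(CPM + 1) with SD over 16 libraries in the low (blue) and high (red) group for the 30 measured immediate-early genes outside the score, ordered by the difference of means. The SD bars of the groups overlap for every gene, from FOSB with a difference of 1.89 to KLF10 with -0.80.

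The promoters of these genes were read by the same letters. Of the 22 measured members with a promoter in the table, 12 held a CRE core (54.5%) and none a CArG box. Among all 7580 measured genes with a promoter the shares were 32.9% and 1.04%. The full CRE, TGACGTCA, was in 5 of them, CCNL1, DUSP1, JUND, MAFF and PPP1R15A, in 3.44% of the 7580 measured genes with a promoter and in 1.77% of all promoters in the table. Their differences ran from 1.64 for DUSP1 to -0.63 for MAFF. Of the 19 genes past the limit on the higher side with a promoter in the table, 8 held a CRE core (42.1%) and none a CArG box or full CRE. The shares of measured genes beside these are 32.9%, 1.04% and 3.44%.

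The pathway upstream of the score genes and its further targets had list medians between 0.03 and 0.36, beside 0.21 over all genes. Of 25 components from BCR-ABL to SRF, 23 were measured with a median difference of 0.07, and 1, BCR, passed the limit. Over all genes outside the score 0.285% passed on the higher side and 0.0475% on the lower. CRKL, the adaptor that BCR-ABL phosphorylates, differed by 0.31 and ABL1 by 0.07. BCR itself had CPM values of 0, 1.36 and 70.9 in the low and 1.57, 32.7 and 546 in the high group, a difference of 2.66, and reads on BCR include those of the fusion mRNA. Of 6 measured ERK feedback and target genes none passed the limit, with a median of 0.03 and the largest difference, 1.43, in the ETS factor ETV4. The 12 measured cytoskeletal targets of SRF had a median of 0.10, and ACTB, at 12.16 ± 0.44 and 12.20 ± 0.32, differed by 0.03. ACTG1 of the same list differed by -0.08 and TAGLN2, an actin-binding protein, by 1.16, with means of 7.69 ± 1.58 and 8.85 ± 0.77. The 8 STAT5 targets had a median of 0.36, with PIM2, a survival kinase, at 0.02 and the D-type cyclins CCND2 and CCND3 at 0.06 and 0.92.

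Of 19 measured G1/S and DNA replication genes 15 lay above 0 (63.8% of all genes did), with a median of 0.59 beside 0.21. Their median rho with the score over the 48 libraries was 0.06, beside 0.05 over all genes. In the imatinib Orange, benzene Green, benzene Orange and Hoechst libraries the median difference of the list was -0.08, 0.18, 0.11 and -0.29, beside -0.08, 0.23, 0.15 and -0.06 over all genes. In the Green libraries 1 passed the limit, CDC45, a part of the replicative helicase, at 86.4, 370 and 880 CPM in the low and 231, 700 and 1476 CPM in the high group, a difference of 1.04 against SDs of 1.01 and 0.74. MCM7 and MCM3, further helicase subunits, differed by 0.28 and 0.02. The 19 G2/M and mitosis genes had a median of -0.14, with CCNB1 at -0.47. The low group also had fewer detected genes, whose part in these values was not tested.

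Stress and housekeeping lists held no gene past the limit, which 0.285% of all genes passed on the higher side and 0.0475% on the lower. The 14 measured genes of the ATF4 stress response had a median of -0.32, although ATF4 itself differed by 1.04, and the 13 heat-shock proteins and chaperones had a median of 0.14. The medians were 0.22 for 73 cytosolic ribosomal protein genes, 0.21 for 19 glycolytic enzymes, 0.16 for 13 mitochondrially encoded protein genes and 0.20 for 13 nuclear lncRNAs and snoRNA host genes. The 22 K562 and erythroid genes, all measured, had a median of 0.22. PRAME was at 11.61 ± 0.57 and 11.81 ± 0.34, and the fetal globin HBG2 at 11.06 ± 0.55 and 11.12 ± 1.11, so both groups carried the markers of the line.

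Of 14 markers of other cell types 13 were in the count table, and 6 of these had no read in the 32 libraries, among them MS4A1, CD14 and DCN. Only EPCAM, LYZ and CD3D were measured, with differences of 0.45, 0.80 and 1.67. CD3D was detected in 1 low group and 7 high group libraries and had a median of 0 CPM in both. The summed level of the list was 1.53 to 182 CPM in the low and 1.95 to 269 CPM in the high group.

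**Figure D4:**
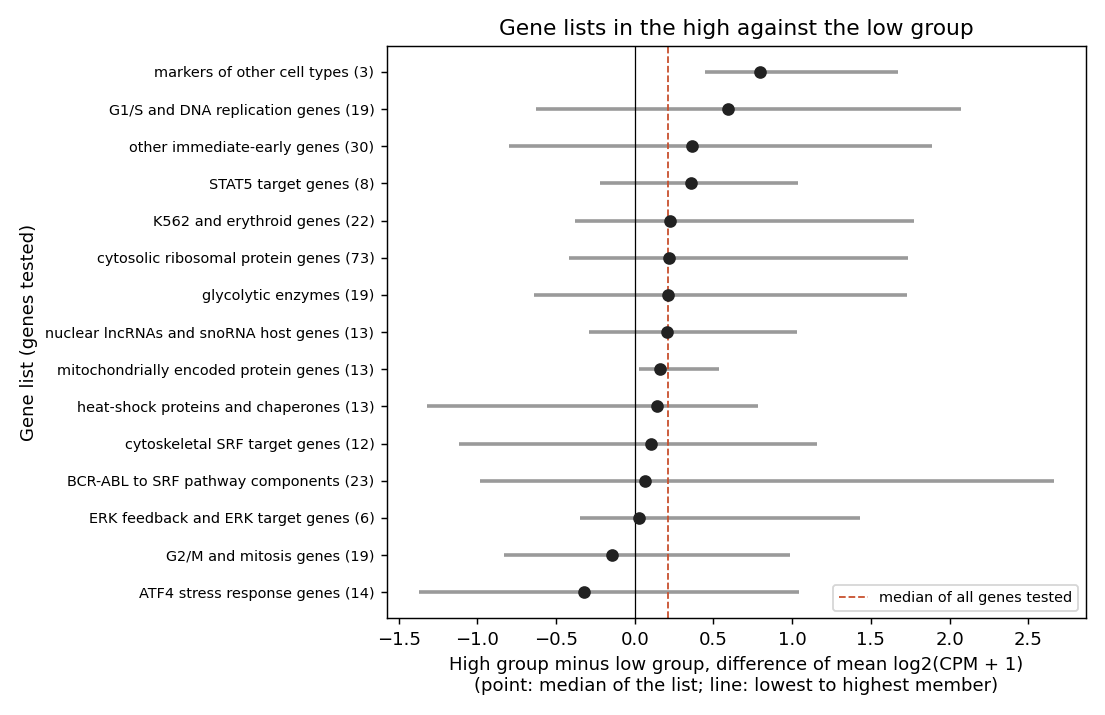
Difference between the high and low groups in mean log2(CPM + 1) for 15 gene lists: the point is the median of the measured members, the line runs from the lowest to the highest member, and the dashed line is the median of all genes, 0.21. List medians lie between -0.32 (ATF4 stress response) and 0.80 (3 markers of other cell types), and the widest range upward, to 2.66, is BCR.

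The 30 genes higher past the limit had no shared role that the lists name, beyond BCR and CDC45. The largest difference was in TERF2, which binds telomere repeats. Its CPM was 0, 3.37 and 155 in the low group and 4.16, 71.6 and 282 in the high group, and it was detected in 8 and 16 of 16 libraries, a difference of 3.37. In the low group 8 libraries thus had 2 reads or fewer, and the ranges overlapped. This was so for each of the 35 genes.

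UCA1, a long non-coding RNA, differed by 3.11 with medians of 18.4 and 151 CPM. NCAPH, a subunit of condensin I, differed by 3.04, from 8 to 16 libraries with detection and from a median of 2.06 to 78.8 CPM. ALAS1, the first enzyme of haem synthesis in most cells, differed by 2.95 and was detected in 7 and 14 libraries. Others act in metabolism: PANK2 (2.90) makes the first step to coenzyme A, RIDA (2.78) removes reactive imines, ADI1 (2.78) serves methionine salvage and CARS2 (2.46) charges mitochondrial cysteine tRNA.

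NAPA, which recycles membrane fusion complexes, differed by 2.75 and RNF4, a ubiquitin ligase for SUMO-modified proteins, by 2.60. RNF4 was detected in 14 and 16 libraries with medians of 18.03 and 122 CPM. The LIM-domain protein FHL3 differed by 2.63, the phosphatase PTP4A3 by 2.47, ANKRD13D, a ubiquitin-binding protein, by 2.47 and ZUP1, a deubiquitinase, by 2.45. ANKRD13D was detected in only 1 and 8 libraries.

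The 5 lower genes were HOXB7, PRKRIP1, NUFIP2, IPO9 and RAB30-DT. HOXB7, a homeobox transcription factor, had CPM values of 5.06, 36.1 and 209 in the low and 0, 7.73 and 46.7 in the high group, a difference of -2.88. IPO9, a nuclear import receptor, was the most abundant, at 31.04, 410 and 1790 CPM against 4.99, 144 and 377, a difference of -1.85. NUFIP2, an RNA-binding partner of FMRP, differed by -1.94, PRKRIP1 by -2.08 and the non-coding RAB30-DT by -1.76. HOXB7, IPO9 and NUFIP2 were detected in all 16 low group libraries.

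For several of these genes the middle group was near the high group. TERF2 was at 2.23, 5.27 and 5.60 in the low, middle and high group, FHL3 at 3.39, 5.91 and 6.02 and CDC45 at 8.28, 9.30 and 9.31. HOXB7 was at 5.30, 2.35 and 2.41, while IPO9, at 8.57, 7.65 and 6.72, was midway. The middle and high groups were also the nearer pair in spike-in share and detected genes, whose part in this was not tested. Exons of 19 of the 35 genes overlap another gene in an annotation newer than the one used for counting. The share over all measured genes was not computed. The Nextera XT kit does not mark strand, and the study lists ambiguously mapped reads as a separate category. Reads of TERF2, UCA1, RNF4, ADI1, NAPA and IPO9, for example, thus cannot be fully separated from those of their neighbours.

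Leaving out 1 library at a time gave 25 to 42 higher and 4 to 8 lower genes, and 20 of the 35 remained past the limit in all 32 such repeats. The lower count reached 8 without low group library 23, 41 or 42 or high group library 14 or 27 (numbers within the Green set). TERF2, UCA1, HOXB7 and IPO9 were among the 20. NCAPH remained past in 25, BCR in 22, CDC45 in 21 and NAPA in 14.

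In the other sets of libraries, which did not choose these genes, groups were formed by the same rule from the same score genes. These sets had their own numbers past the limit: 0.433% higher and 0.499% lower in the Orange cells of the imatinib run (43 libraries kept), 3.65% and 0.909% in the Green cells of the benzene run (30), 0.798% and 0.281% in its Orange cells (32), and 0.0384% and 0.0576% in the Hoechst run (77). Of the 30 higher genes, the difference was also above 0 for 9 of 30 measured in the imatinib Orange cells, where 45.8% of all genes were above 0. It was above 0 for 14 of 28 in the benzene Green cells (57.9% of all genes), 14 of 28 in the benzene Orange cells (56.3%) and 8 of 29 in the Hoechst run (45.98%). Of the 5 lower genes the difference was below 0 for 1, 2, 1 and 3 in the same order.

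Across the 35 genes and 4 sets, 1 gene passed the limit again in the same direction. This was 1 of 28 higher genes measured in the benzene Green cells. There 3.75% of all genes measured in both sets passed on that side. It was RNASEK, a V-ATPase-associated protein, with differences of 2.21 in the Green cells of the imatinib run and 2.83 in those of the benzene run. Its level was low, with medians of 0 and 5.72 CPM, and its exons overlap the read-through gene RNASEK-C17orf49. ZUP1 alone had a difference above 0 in all 4 sets (0.71, 0.11, 0.52 and 0.10). TERF2 had differences of 0.17, 0.48, -1.43 and -0.65 in the imatinib Orange, benzene Green, benzene Orange and Hoechst libraries, and HOXB7 0.29, 0.94, -1.01 and -0.36.

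The other immediate-early genes had median differences of 0.59 in the imatinib Orange cells (22 of 27 measured above 0), 0.12 in the benzene Green cells (15 of 28), 0.38 in the benzene Orange cells (14 of 25) and 0.41 in the Hoechst run (23 of 30). The medians over all genes there were -0.08, 0.23, 0.15 and -0.06. Of all genes outside the score measured both there and in the compared Green libraries, 45.8%, 57.9%, 56.3% and 45.98% lay above 0. Past the limit on the higher side were 2, 0, 1 and 0 of them, beside 0.433%, 3.65%, 0.798% and 0.0384% of all genes outside the score. In the imatinib Orange cells these were IER5 (2.25) and HES1 (1.43), which differed by -0.76 and -0.77 in the Green cells of that run. In the benzene Orange cells it was DUSP1. DUSP1 differed by 1.06, 0.34, 3.53 and -0.14 in the 4 sets, and FOSB, measured in both benzene sets only, by 2.87 and 1.69.

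The untreated Green cells of the imatinib run held the highest score of the 5 sets, with a median of 7.12. The medians were 5.44 in the imatinib Orange cells, 4.87 and 4.31 in the benzene Green and Orange cells, and 4.46 in the Hoechst run. FOS differed most between the sets. It was detected in 46 of 48 Green libraries of the imatinib run, 35 of 43 Orange libraries, 17 of 30 and 20 of 32 in the benzene run and 22 of 77 in the Hoechst run. Its median CPM was 325, 66.6, 8.41, 4.84 and 0 in the same order. EGR1 had medians of 399, 160, 199, 93.9 and 322 CPM, and IER2 27.5, 7.32, 10.0, 8.56 and 22.3. Run, dye and treatment differ together between most of these sets and cannot be told apart, and no test of the order was made. Per the study, its Hoechst experiment also used a distinct K562 lot, another sequencer and another read length. Dead-stained cells were sequenced there but left out of sequencing in the CellTracker experiments. The passage labels differ too, and these differences cannot be told apart either.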

How the data were processed

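Single-cell RNA-seq libraries of K562 cells were made on the Fluidigm C1 with the SMARTer Ultra Low and Nextera XT kits. The counts deposited by the authors are whole reads per gene: per the study's methods reads were trimmed with skewer, aligned with HISAT2 to GRCh37 with ERCC sequences, processed with Picard 1.92 and counted with featureCounts (Subread 1.5.0) on Ensembl genes. The authors' deposited CPM table was not used. Sample columns were matched by title; 4 columns matched no labelled sample and were not used. The table has 63677 genes, of which 55665 (99.0% of reads) were named from GENCODE v44lift37; the counting itself used an older annotation.

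CPM per 1000000 reads on genes and log2(CPM + 1) were computed in Python 3.11.15 with pandas 2.3.3. Size factors came from edgeR 4.0.16 (TMMwsp) and DESeq2 1.42.0 (poscounts) in R 4.3.3. No p-value was computed, since the groups were made from measured values in 1 experiment. The members, the rule and the 16 gene lists were chosen with earlier results of these data known. Genes were named by a rule: the 3 score genes, up to 15 higher and 10 lower genes past the limit (pseudogenes and unnamed genes left out), every list member past the limit and the 3 most abundant of each list, every measured immediate-early gene, and up to 10 genes with the same direction in all other sets. RNASEK, MS4A1, CD14 and DCN were named after their values were seen. No 2 kept libraries had identical counts.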

Additional observations from a re-analysis of the deposited data

How the results depend on the processing

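The groups, the number of genes past the size limit and the median of the other immediate-early genes were recomputed in 16 other ways and in 2 more chosen after seeing the data (standardised score, spike-in limit). The 30 higher and 5 lower genes became 19 and 9 with TMMwsp and with DESeq2's poscounts, 3 and 0 with 24 libraries a group, 108 and 13 with 12 a group, 13 and 9 with groups formed inside each side of the median number of detected genes, 13 and 14 with a score without FOS, 1088 and 1188 with log2 ratios of mean CPM, 1416 and 409 with a difference of at least 1 alone, and 10 and 19 without the libraries over 15% spike-in. They became 24 and 3 with log2(CPM + 10), 21 and 8 after thinning to 1000000 reads (46 libraries) and 32 and 3 with a score without IER2. Leaving out 1 library in turn gave 25 to 42 higher and 4 to 8 lower genes and an immediate-early median of 0.27 to 0.56. That median, 0.37, was 0.68 over genes detected in at least 50% of libraries, beside 0.24 over all such genes. With log2 ratios of mean CPM it was -0.15, beside -0.006 over all genes. Of 1886 recomputed differences of the 95 named genes, 1885 moved by less than the spread between libraries and none past the limit changed sign, a spread that is wide (median SD 2.22 over all genes). Of the 35 genes 19 remained past the limit with TMMwsp, 3 with a score without FOS and 4 without IER2. The count in the other sets had no alternative. No paired analysis was possible because the replicate numbers name libraries in accession order only and no test was made.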

Other observations

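Ranked along the continuous score of all 48 libraries, the genes with the highest Spearman's rho outside the score were RNASEK (0.64), ANKRD13D (0.54) and ADI1 (0.52). SRSF7, a splicing factor, followed with 0.50 at a difference of 0.69 between the groups. The lowest were CKAP5, a microtubule polymerase, at -0.44, ZNF429 at -0.43 and IPO9 at -0.42. These are descriptions over libraries that share a run and differ in depth, and CKAP5, ZNF429 and SRSF7 were chosen after their values were seen.

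The 3 Green libraries outside the limits are given as values. One had 356036 reads on genes, 2057 detected genes, 84.04% of reads in its top 500 genes and 52.9% spike-in, with 3, 1 and 1 reads on EGR1, FOS and IER2. Another had 11208 detected genes and 35.2, 200 and 7.83 CPM of EGR1, FOS and IER2, and the last had 12134 detected genes and 148, 366 and 32.3 CPM. Their scores were 2.37, 5.32 and 6.93.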
